A study of Mus musculus with 12 samples.

Results

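Expression of 10 genes of the retinoic acid pathway was followed in mouse embryonic stem (ES) cells entering mTORi-induced dormancy. The genes were taken by their symbols from the deposited expression tables, which list 54446 gene identifiers. They comprise the receptors Rara, Rarb, Rarg and Rxra, the binding proteins Crabp1 and Crabp2, the clearance enzymes Cyp26a1 and Cyp26b1, the synthesis enzyme Aldh1a2 and the long noncoding RNA Halr1. Of these, 8 had a mean of at least 1 TPM (transcripts scaled to a fixed total of 1000000 per library) over the 12 libraries and belonged to the 15727 genes tested, whereas Rarb and Cyp26b1 did not.

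RNA sequencing was performed on 2 lines, KH and DNMT3ABKO, at 0, 72 and 144 h of mTORi, the inhibition of the kinase mTOR by INK128, and each of the 6 groups held 2 replicates. The 0 h groups are labelled as control and received no inhibitor. KH is taken here as the wild-type KH2 line of the study's methods, DNMT3ABKO has lost Dnmt3a and Dnmt3b, which set up DNA methylation de novo, and both names follow E14 in the labels. Each genotype is represented by a single line. The methods place KH2 and Dnmt3a/b knockout cells on mitomycin-treated feeders and cells of E14 background on gelatin with no feeders, so the labels and methods do not settle the culture of these lines. Cells were sorted before RNA extraction. No untreated culture was sampled at 72 or 144 h, so the inhibitor and time in culture cannot be told apart, and the question asked is how each gene differs from 0 h and between lines.

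Retinoic acid, the active form of vitamin A, is made from retinol by a pair of oxidations, of which Aldh1a2 carries out the last. Inside the cell it is carried by CRABP proteins, destroyed by CYP26 enzymes, and read out by heterodimers of a retinoic acid receptor (RAR) and a retinoid X receptor (RXR), which sit on DNA at direct repeats of a short half-site. Without ligand these dimers recruit corepressors, and with ligand they recruit coactivators. In ES cells retinoic acid is a classical inducer of differentiation, and Rarb, Cyp26a1 and Stra8 are among its textbook targets.

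The libraries matched their line labels at the knocked-out genes. Dnmt3a lay between 7.35 and 21.9 TPM in DNMT3ABKO libraries and between 54.7 and 144 TPM in KH libraries, and Dnmt3b reached at most 27.5 TPM in the former and at least 142 TPM in the latter. Read depth is unknown, since TPM keeps none, and 15178 to 15811 genes per library had at least 1 TPM. Replicates of DNMT3ABKO at 0 h stood further apart (SD of 0.27 on the log2 scale over all tested genes) than those of the other groups (0.13 to 0.18). Markers of other cell types changed with time. All 18 tested of 20 listed fibroblast markers fell in both lines at 72 and 144 h, and their summed level went from 2184 ± 148 TPM (SD, n = 2) at 0 h to 673 ± 13.6 and 133 ± 3.03 TPM in KH cells and from 2364 ± 22.4 to 538 ± 37.1 and 140 ± 4.77 TPM in DNMT3ABKO cells. None of these markers reached 0 as a group mean, with Col1a1 still at 9.67 ± 1.48 TPM and Lum at 0.0253 ± 0.00556 TPM in KH cells at 144 h. Of 12 macrophage markers, 11 were tested, and their sum went from 331 ± 21.2 to 227 ± 5.04 and 38.9 ± 1.02 TPM in KH cells and from 289 ± 22.6 to 155 ± 1.75 and 54.7 ± 1.5 TPM in DNMT3ABKO cells. At 72 h 8 fell and 1 rose in KH cells, and 9 fell and 1 rose in DNMT3ABKO cells. Laptm5 went from 35.2 to 51.5 TPM and from 26.2 to 34.9 TPM over that time. At 144 h 11 fell in KH and 10 in DNMT3ABKO cells. Cd68 and Laptm5 still held 15.1 and 18.3 TPM in KH and 22.3 and 18.8 TPM in DNMT3ABKO cells, a large part of the sums at 144 h. Aif1 was listed at 0 in both lines at 144 h and C1qb in KH cells. Of 11 ES cell markers, 10 rose in KH cells at 72 h and at 144 h, with medians of 0.45 and 0.37 on the log2 scale. In DNMT3ABKO cells 10 rose and Nanog fell at 72 h, and 8 rose and 1 fell at 144 h (medians of 0.37 and 0.59). In bulk samples, fewer cells of a type and less RNA per cell cannot be told apart.

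**Figure D1:**
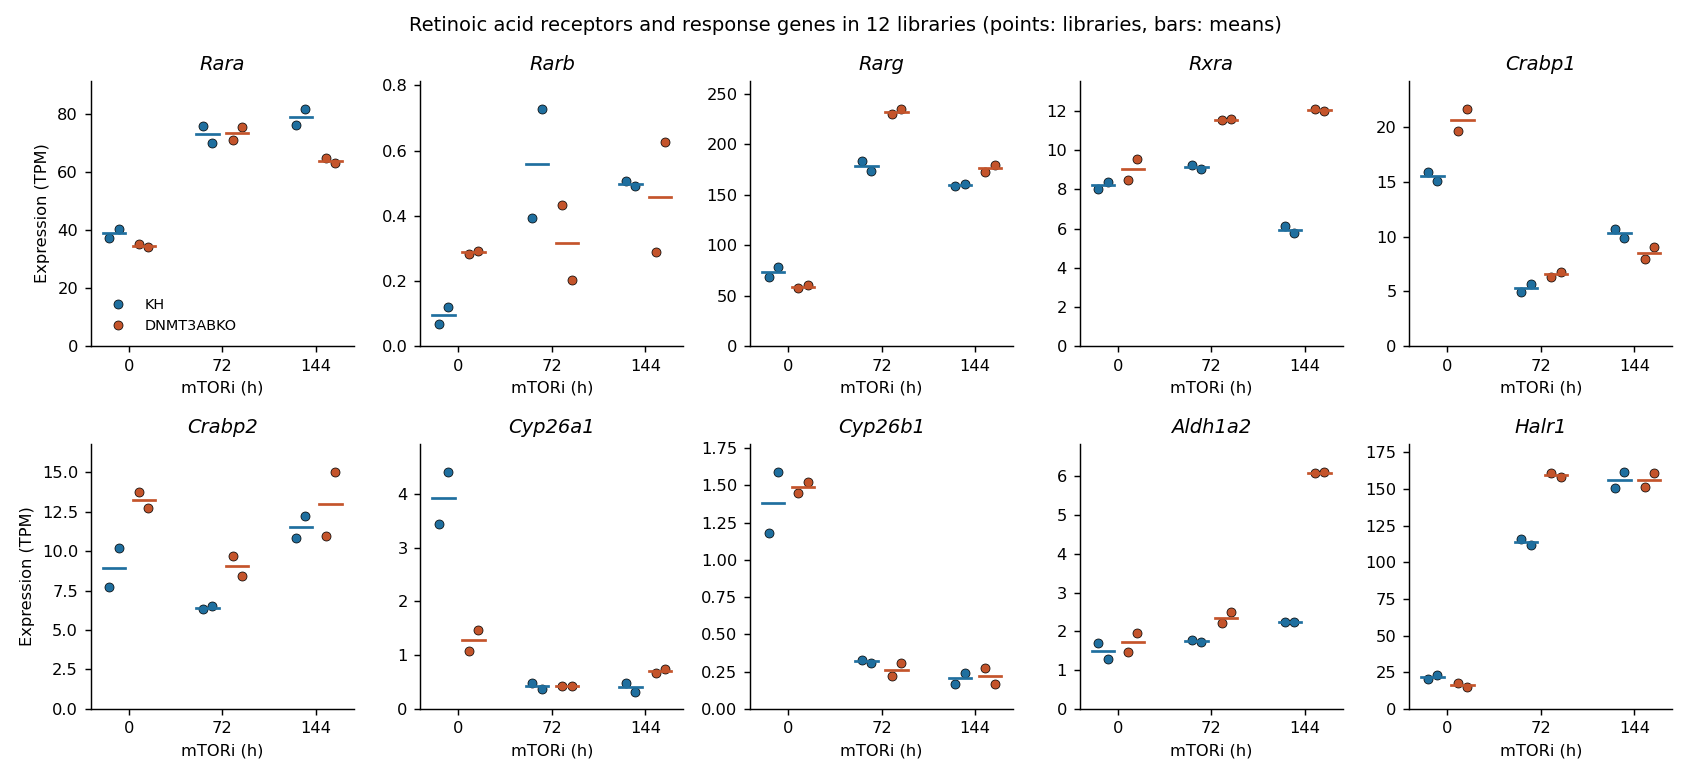
Expression of the 10 genes (TPM, linear axes starting at 0) at 0, 72 and 144 h of mTORi in KH (blue) and DNMT3ABKO (orange) cells. Points are single libraries and bars are means of 2; Rarg and Halr1 reach over 150 TPM under mTORi, whereas Rarb stays below 1 TPM in every library.

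Among the receptors, Rarg and Rara rose in TPM in both lines under mTORi. TPM are shares of a library's RNA, and the study's spike-in normalized data showed global repression of transcripts under mTORi in wild-type ES cells. It also reports decreased global transcription in Dnmt3a/b knockout cells, so a rise in TPM, here and below, need not be one per cell. ES cell markers rose as well (medians of 0.37 to 0.59 on the log2 scale), and the part of cell composition in the receptor rises was not tested. TPM is scaled by transcript length, so levels can be set side by side, and Rarg, the RAR best known from early embryonic and ES cells, was the most abundant RAR in every library. In KH cells Rarg (ENSMUSG00000001288.15, mm10 chromosome 15, 102234938 to 102257517) measured 68.6 and 77.9 TPM at 0 h, 183 and 173 TPM at 72 h, and 159 and 160 TPM at 144 h. In DNMT3ABKO cells it measured 57.2 and 60.6 TPM at 0 h, 230 and 234 TPM at 72 h, and 173 and 179 TPM at 144 h. Both lines were lowest at 0 h and highest at 72 h, with no overlap between these time points. The log2 fold change of TPM + 1 from 0 h was 1.27 ± 0.07 (SE) at 72 h and 1.11 ± 0.07 at 144 h in KH cells (limma adjusted p = 1.36e-06 and 1.21e-06). In DNMT3ABKO cells it was 1.96 ± 0.07 and 1.56 ± 0.07 (limma adjusted p = 6.56e-08 and 5.76e-08), and Rarg fell by 0.40 ± 0.07 between 72 and 144 h there. This gain at 72 h ranked 228 of 15727 genes in KH cells and 81 in DNMT3ABKO cells.

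The lines differed in the Rarg response. DNMT3ABKO cells started lower (log2 difference of -0.31 ± 0.07, limma adjusted p = 0.0245) and stood higher at 72 h (0.38 ± 0.07, limma adjusted p = 0.00471), a call lost without replicate 2 of the KH cells at 72 h (0.34, limma adjusted p = 0.0523). The difference between lines in the response was 0.69 ± 0.10 at 72 h (limma adjusted p = 0.0042) and 0.45 ± 0.10 at 144 h (limma adjusted p = 0.0219). The lower start held in 13 of 18 alternative settings. Without replicate 2 of the KH cells or replicate 1 of the DNMT3ABKO cells at 0 h it was not called (-0.22 and -0.27). Nor was it called with a replicate block (limma adjusted p = 0.0536). The difference in response at 144 h held in 11 of 18 alternatives. It was not called without either library of either line at 144 h or replicate 2 of KH at 0 h (0.36 to 0.48).

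Rara (ENSMUSG00000037992.16, chromosome 11, 98927818 to 98974942), the most broadly expressed RAR, measured 37.2 and 40.6 TPM at 0 h, 75.8 and 70.3 TPM at 72 h, and 76.3 and 81.7 TPM at 144 h in KH cells. Libraries of DNMT3ABKO cells held 35.3 and 34.1 TPM at 0 h, 71.3 and 75.5 TPM at 72 h, and 64.8 and 63.3 TPM at 144 h. The 0 h libraries of either line thus lay below all treated ones, and the lines overlapped at 72 h. The log2 fold change was 0.89 ± 0.07 and 1.00 ± 0.07 in KH cells at 72 and 144 h, beside 1.06 ± 0.07 and 0.87 ± 0.07 for DNMT3ABKO, with limma adjusted p of at most 1.13e-05. At 144 h Rara was lower in DNMT3ABKO cells (-0.30 ± 0.07, limma adjusted p = 0.0132), a call lost without replicate 2 of the KH cells or either DNMT3ABKO library at 144 h (-0.25 to -0.31). Its responses did not differ between lines at the threshold, with differences of 0.17 at 72 h (2 SE either side, -0.04 to 0.37) and -0.14 at 144 h (-0.34 to 0.07).

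Rarb, the RAR whose own promoter answers to retinoic acid, stayed near the limit of the data. It measured 0.0683 and 0.121 TPM at 0 h, 0.393 and 0.726 TPM at 72 h, and 0.505 and 0.491 TPM at 144 h in KH cells. The DNMT3ABKO values were 0.283 and 0.292, 0.432 and 0.203, and 0.288 and 0.626 TPM. The 0 h libraries of KH cells were the lowest of all 12, and the DNMT3ABKO groups overlapped. Without the filter on low values, the KH change at 72 h was 0.50 ± 0.14 (limma adjusted p = 0.0412, where 20.0% of 37364 genes were called) and that at 144 h was 0.45 ± 0.14 (limma adjusted p = 0.0523). Rarb (chromosome 14, 16430839 to 16819156, minus strand) shares 4624 bases with Top2b on the other strand, which averaged 15.4 TPM. Whether the counting used strand is not given in the sources used here, so these low values are uncertain.

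Summed over the 3 RAR genes, expression went from 112 ± 8.97 TPM at 0 h to 252 ± 10.7 and 239 ± 4.78 TPM in KH cells and from 93.8 ± 1.56 to 306 ± 5.83 and 240 ± 4.01 TPM in DNMT3ABKO cells. Rarg made up 65.2% ± 0.654 of the pool at 0 h, 70.8% ± 0.219 at 72 h and 66.7% ± 0.933 at 144 h in KH cells. In DNMT3ABKO cells its share was 62.7% ± 1.51, 75.9% ± 0.461 and 73.2% ± 0.796. The share was thus higher in both DNMT3ABKO libraries than in both KH libraries at 72 and 144 h.

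Rxra (ENSMUSG00000015846.14, chromosome 2, 27676440 to 27762957), an obligate partner of the RARs, went in opposite directions in the 2 lines. In KH cells it measured 8.02 and 8.40 TPM at 0 h, 9.23 and 9.03 TPM at 72 h, and 6.11 and 5.77 TPM at 144 h. The corresponding DNMT3ABKO libraries held 8.46 and 9.58, 11.5 and 11.6, and 12.08 and 11.98 TPM. At 144 h the DNMT3ABKO libraries lay above the KH libraries, with a TPM ratio of 2.02. From 0 to 144 h Rxra fell by 0.41 ± 0.08 on the log2 scale in KH cells (limma adjusted p = 0.00244) and rose by 0.38 ± 0.08 in DNMT3ABKO cells (limma adjusted p = 0.003). The rise held in 17 of 18 alternatives. The difference in response was 0.79 ± 0.12 (limma adjusted p = 0.00237). At 72 h the line difference of 0.31 ± 0.08 (limma adjusted p = 0.0278) was not called when any one of the 4 libraries was left out, nor with a replicate block (limma adjusted p = 0.0624). Rxrb, not a member, was the main RXR, at 38.6 ± 1.28 TPM in KH cells at 0 h and 51.1 ± 0.0538 TPM at 144 h. Rxra made up 10.1% ± 0.343 of RXR transcripts in KH cells at 144 h and 21.6% ± 0.0839 in DNMT3ABKO cells.

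**Figure D2:**
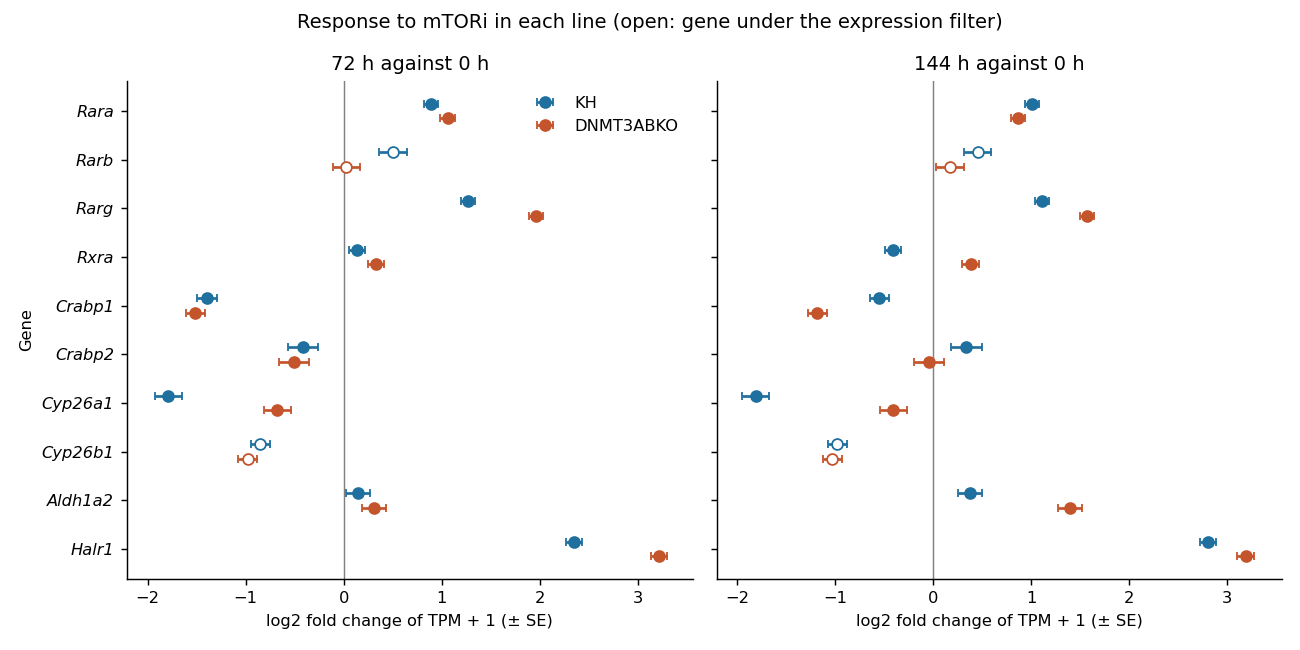
Log2 fold change of TPM + 1 from 0 h, with its standard error, for the 10 genes at 72 h (left) and 144 h (right) in KH (blue) and DNMT3ABKO (orange) cells; open symbols are the 2 genes under the filter, from the fit without it. Halr1, Rarg and Rara lie right of 0 and the CYP26 genes left of it in both lines, and Rxra lies on opposite sides at 144 h (-0.41 and 0.38).

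Of the binding proteins, Crabp1 fell in both lines and Crabp2 changed less. CRABP1 is thought to hold retinoic acid in the cytoplasm, and CRABP2 to carry it to the receptors. Crabp1 (ENSMUSG00000032291.8, chromosome 9, 54764748 to 54773110) measured 15.96 and 15.13 TPM at 0 h, 4.95 and 5.65 TPM at 72 h, and 10.7 and 9.91 TPM at 144 h in KH cells. DNMT3ABKO cells had 19.6 and 21.6, 6.32 and 6.81, and 7.98 and 9.07 TPM. In both lines the lowest libraries were those at 72 h and the 144 h libraries lay between. Crabp1 fell by 1.39 ± 0.10 on the log2 scale at 72 h in KH cells and by 1.51 ± 0.10 in DNMT3ABKO cells (limma adjusted p = 4.97e-06 and 1.66e-06). By 144 h it had risen again by 0.84 ± 0.10 in KH cells (limma adjusted p = 0.000279) and by 0.33 ± 0.10 in DNMT3ABKO cells (limma adjusted p = 0.0324). The second of these was not called without either DNMT3ABKO library at 72 h or replicate 2 at 144 h (0.25 to 0.38). The response at 144 h was more negative in DNMT3ABKO cells, by -0.63 ± 0.14 (limma adjusted p = 0.0207). That difference held in 13 of 18 alternatives. It was not called without replicate 2 of the KH cells at 0 h or replicate 1 of either line at 144 h (-0.55 to -0.60). The difference at 0 h, 0.39 ± 0.10 (limma adjusted p = 0.0383), held in 3 of 18 alternatives and not with a replicate block (limma adjusted p = 0.0572).

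Crabp2 (ENSMUSG00000004885.5, chromosome 3, 87948666 to 87953376) measured 7.74 and 10.2 TPM at 0 h, 6.34 and 6.50 TPM at 72 h, and 10.8 and 12.2 TPM at 144 h in KH cells. DNMT3ABKO libraries held 13.8 and 12.7, 9.70 and 8.40, and 10.9 and 15.0 TPM. The 72 h libraries were again the lowest of each line. In DNMT3ABKO cells Crabp2 fell by 0.51 ± 0.16 at 72 h (limma adjusted p = 0.019), a call that held in 14 of 18 alternatives. It was lost without replicate 1 at 0 h or replicate 2 at 72 h (-0.45 and -0.41). In KH cells the same change, -0.41 ± 0.16, lay at the threshold (limma adjusted p = 0.04998), held in 8 of 18 alternatives, was -0.24 without replicate 2 at 0 h and was not called with a replicate block (limma adjusted p = 0.0553). The rise of 0.75 ± 0.16 between 72 and 144 h in KH cells (limma adjusted p = 0.00699) was not called without replicate 2 at 144 h (0.67). Crabp1 made up 63.6% ± 5.33 of the CRABP transcripts at 0 h in KH cells and 60.9% ± 2.98 in DNMT3ABKO cells, against 47.2% ± 3.42 and 39.9% ± 3.18 at 144 h.

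The clearance enzymes Cyp26a1 and Cyp26b1 were low and fell under mTORi. Cyp26a1 is the main enzyme that removes retinoic acid in the early embryo and is itself a direct target of the receptors. In KH cells Cyp26a1 (ENSMUSG00000024987.5, chromosome 19, 37697808 to 37701528) measured 3.440 and 4.404 TPM at 0 h, 0.480 and 0.360 TPM at 72 h, and 0.476 and 0.320 TPM at 144 h. The values in DNMT3ABKO cells were 1.08 and 1.47, 0.419 and 0.421, and 0.668 and 0.750 TPM. All 4 libraries at 0 h lay above the 8 treated ones, and KH lay above DNMT3ABKO at 0 h. Its mean exceeded 1 TPM only in the 2 groups at 0 h, so that it passed the filter through them. The log2 change was -1.79 ± 0.14 at 72 h and -1.81 ± 0.14 at 144 h in KH cells (limma adjusted p = 8.18e-06 and 3.95e-06), a TPM ratio of 0.107 and 0.101. In DNMT3ABKO cells it was -0.68 ± 0.14 and -0.41 ± 0.14 (limma adjusted p = 0.00212 and 0.0265), a TPM ratio of 0.328 and 0.554. With a pseudocount of 0.1 TPM in place of 1 TPM these changes were -1.39 and -0.76, and those of KH cells -2.95 and -3.02. At the pseudocount of 1 TPM, the DNMT3ABKO change of -0.41 at 144 h held in 12 of 18 alternatives. It was not called without replicate 2 at 0 h or either library at 144 h (-0.29 to -0.45).

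Before treatment the DNMT3ABKO level of Cyp26a1 was the lower one, with a log2 difference of -1.11 ± 0.14 (limma adjusted p = 0.000777), rank 65 from the lowest of 15727 genes. Cyp26a1 passed the filter only through these 0 h groups, so this p and rank are not independent of the filter. At 72 h the difference was 0.00 (-0.27 to 0.28), and at 144 h it was 0.29 ± 0.14 and not called (limma adjusted p = 0.151). Every treated library lay under 1 TPM, so the differences in response rest largely on the 0 h values. The responses differed by 1.11 ± 0.19 at 72 h (limma adjusted p = 0.01) and 1.40 ± 0.19 at 144 h (limma adjusted p = 0.00146), and the first was not called without replicate 2 of the KH cells at 72 h (1.05) or with a pseudocount of 0.1 TPM (1.56, limma adjusted p = 0.0533). With that pseudocount the second was 2.26. At 0 h the summed fibroblast markers stood at 2184 ± 148 (KH) and 2364 ± 22.4 TPM (DNMT3ABKO) and the macrophage markers at 331 ± 21.2 and 289 ± 22.6 TPM, and their part in this difference was not tested.

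Cyp26b1 (ENSMUSG00000063415.12, chromosome 6, 84571414 to 84593908) measured 1.18 and 1.59 TPM at 0 h, 0.329 and 0.307 TPM at 72 h, and 0.169 and 0.242 TPM at 144 h in KH cells. For DNMT3ABKO these were 1.45 and 1.52, 0.219 and 0.305, and 0.273 and 0.166 TPM. The lines overlapped at 0 and 144 h, and all libraries at 0 h were above 1 TPM. In the fit without the filter it fell by 0.85 ± 0.10 and 0.98 ± 0.10 in KH cells at 72 and 144 h and by 0.98 ± 0.10 and 1.03 ± 0.10 in DNMT3ABKO cells (limma adjusted p of at most 0.00084). In that fit 24.4% of genes were called for KH cells at 144 h, and 26.8% and 30.4% for DNMT3ABKO cells at 72 and 144 h.

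From 0 to 72 h Crabp1, Cyp26a1 and Cyp26b1 fell alongside the summed fibroblast and macrophage markers, whose part in this fall was not tested. Between 72 and 144 h every tested fibroblast marker fell further in both lines (medians of -1.41 and -1.23). Over the same interval Crabp1 rose, and Cyp26a1 was not called (-0.02 in KH and 0.27 in DNMT3ABKO cells). Cyp26b1 was not called either, at -0.13 in KH cells, where both libraries at 144 h lay below those at 72 h (TPM ratio of 0.646), and at -0.05 in DNMT3ABKO cells, where they overlapped (0.839).

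**Figure D3:**
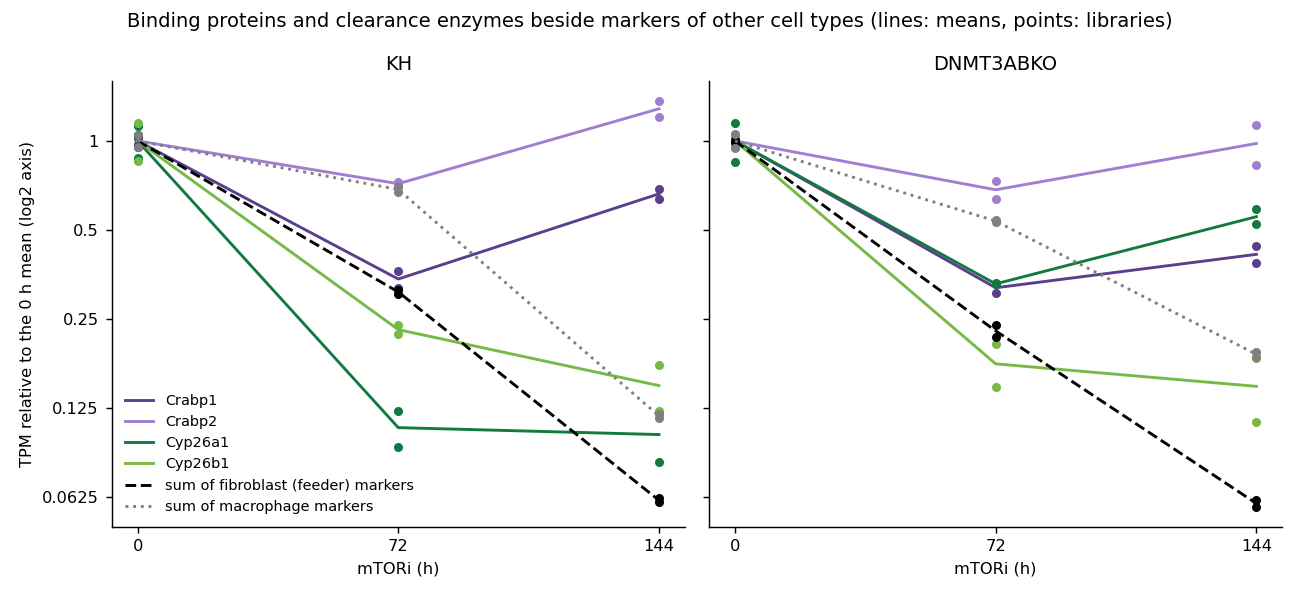
TPM relative to the mean at 0 h (log2 axis) of Crabp1, Crabp2, Cyp26a1 and Cyp26b1 beside the summed fibroblast (dashed) and macrophage (dotted) markers in KH (left) and DNMT3ABKO (right) cells. Lines join means of 2 libraries, shown as points; the marker sums are lower at each later time point, whereas Crabp1 and Crabp2 are lowest at 72 h.

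The promoters of Cyp26a1 and Rarb hold the receptor's preferred sequence, and they are shown because the RARs rose while Cyp26a1 fell and Rarb stayed low. Windows from 250 bases before to 50 bases after each RefSeq start (GRCm38.p6) were searched on both strands for the DR5 element, a pair of half-sites of 6 bases with a spacer of 5 bases, and for DR2, with a spacer of 2. Elements may overlap one another. Crabp2 had no window in the table. DR5 occurred in 32 of 32851 windows (0.0974%), of 31 genes, among them Cyp26a1 and Rarb but no other member. Halr1, Rarg and Rara, which rose, and Crabp1 and Cyp26b1, which fell, thus all lacked it. DR2 occurred in 88 windows (0.268%), none of them of a member. The 200 bases before the start are given 5′ to 3′ on the gene's strand, with half-sites in capitals, for Cyp26a1 (chr19:37697608-37697807, plus strand), Rarb (chr14:16575477-16575676, minus strand, at a RefSeq start inside the gene as the files define it) and, for contrast, Halr1 (chr6:52102749-52102948, plus strand), which holds no DR5.
Cyp26a1: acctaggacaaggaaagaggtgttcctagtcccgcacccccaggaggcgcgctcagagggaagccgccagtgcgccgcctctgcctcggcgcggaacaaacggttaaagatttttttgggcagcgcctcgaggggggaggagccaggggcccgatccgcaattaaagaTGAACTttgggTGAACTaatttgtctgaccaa
Rarb: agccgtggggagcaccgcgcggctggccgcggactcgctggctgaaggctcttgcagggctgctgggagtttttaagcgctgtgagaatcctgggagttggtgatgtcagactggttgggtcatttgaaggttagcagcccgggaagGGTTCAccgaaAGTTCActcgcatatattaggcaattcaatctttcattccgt
Halr1: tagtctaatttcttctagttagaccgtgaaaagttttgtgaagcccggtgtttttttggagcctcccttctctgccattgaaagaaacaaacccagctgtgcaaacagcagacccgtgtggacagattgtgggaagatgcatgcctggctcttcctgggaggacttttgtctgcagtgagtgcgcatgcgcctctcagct
The Rarb element lies 53 to 37 bases upstream of the start, and that of Cyp26a1 lies 32 to 16 bases upstream on the other strand. Of the other genes with a DR5 in this window, 5 were tested. At 72 h, 3 rose and 2 fell in each line, beside 47.8% (KH) and 56.0% (DNMT3ABKO) of all genes called. At 144 h, 2 rose and 2 fell in each line, beside 51.3% and 57.6% of all genes. A match describes letters in a window and does not show that a receptor bound there.

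Aldh1a2 rose late, and further in DNMT3ABKO than in KH cells. It makes retinoic acid from retinaldehyde and is the main such enzyme of the early embryo. Aldh1a2 (ENSMUSG00000013584.5, chromosome 9, 71215789 to 71296243) measured 1.69 and 1.29 TPM at 0 h, 1.77 and 1.73 TPM at 72 h, and 2.23 and 2.23 TPM at 144 h in KH cells. DNMT3ABKO libraries had 1.46 and 1.97, 2.21 and 2.50, and 6.08 and 6.11 TPM. The 2 DNMT3ABKO libraries at 144 h stood above the other 10, and the lines overlapped at 0 h. The log2 fold change at 144 h was 1.39 ± 0.12 in DNMT3ABKO cells (limma adjusted p = 6.73e-06), 1.08 ± 0.12 of it after 72 h (limma adjusted p = 0.000135). In KH cells it was 0.38 ± 0.12 (limma adjusted p = 0.0261), and this held in 14 of 18 alternatives. It was not called without replicate 2 at 0 h or either library at 144 h (0.26 to 0.38). The difference in response was 1.02 ± 0.17 (limma adjusted p = 0.00544), and the lines differed at 144 h by 1.13 ± 0.12 (limma adjusted p = 0.000109). At 72 h the difference in response was 0.16 (-0.18 to 0.51). Between lines at 144 h, where 26.5% of all genes were called, 5 of 11 macrophage markers were higher in DNMT3ABKO cells and none lower. Of 18 fibroblast markers 2 were higher and 1 lower, and of 6 tested primitive endoderm markers 2 were lower and none higher. The sum of the latter stood at 185 ± 26.8 TPM with Dnmt3a/b intact and 185 ± 1.54 TPM without. Sparc held 74.2 and 88.1 TPM of it and Lamb1 64.0 and 51.9 TPM. Dab2 stood at 6.12 and 3.12 TPM. Gata4, at 1.14 and 0.434 TPM, and Sox17, at 1.07 and 1.73 TPM, did not pass the filter and were not tested. The equal sums thus hide group means that differ both ways, of which only lower ones were called. The part of these cell types in the Aldh1a2 difference was not tested.

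Halr1 (ENSMUSG00000085412.7, chromosome 6, 52102949 to 52113684), also called Haunt, is a long noncoding RNA transcribed next to the Hoxa cluster and is known for tempering Hoxa induction by retinoic acid. It overlaps no other gene in the files. In KH cells it measured 20.2 and 22.8 TPM at 0 h, 116 and 112 TPM at 72 h, and 151 and 162 TPM at 144 h. In the knockout line it measured 17.4 and 15.2, 161 and 158, and 152 and 161 TPM. The DNMT3ABKO libraries at 72 h lay within the range of the KH libraries at 144 h, and the lines overlapped at 144 h. The log2 fold change was 2.35 ± 0.08 and 2.81 ± 0.08 in KH cells at 72 and 144 h (limma adjusted p = 1.32e-07 and 1.02e-08) and 3.22 ± 0.08 and 3.19 ± 0.08 in DNMT3ABKO cells (limma adjusted p = 1.74e-08 and 3.3e-09). Among 15727 genes this was rank 5 at both time points in KH cells, and rank 4 at 72 h and 59 at 144 h in DNMT3ABKO cells. The response at 72 h was stronger in DNMT3ABKO cells by 0.86 ± 0.12 (limma adjusted p = 0.00303), composed of a level at 0 h lower by 0.38 ± 0.08 (limma adjusted p = 0.021) and a level at 72 h higher by 0.49 ± 0.08 (limma adjusted p = 0.00312). The former held in 14 of 18 alternatives, and without replicate 2 of the KH cells at 0 h it was -0.29 and not called. Between 72 and 144 h Halr1 rose by 0.45 ± 0.08 in KH cells (limma adjusted p = 0.00405) and changed by -0.03 (-0.20 to 0.14) in DNMT3ABKO cells.

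The genes around Halr1 followed it only in part. Of 11 listed neighbours 4 were tested, namely Hotairm1, Hoxa7, Skap2 and Snx10. The noncoding RNA Hotairm1, 43.2 kb away, measured 2.01 and 2.51 TPM at 0 h, 2.32 and 2.21 TPM at 72 h, and 4.41 and 4.85 TPM at 144 h in KH cells. The knockout line held 2.62 and 2.64, 1.19 and 1.43, and 2.00 and 2.32 TPM. Hotairm1 rose by 0.79 ± 0.12 in KH cells at 144 h (limma adjusted p = 0.000302) and fell by 0.65 ± 0.12 in DNMT3ABKO cells at 72 h (limma adjusted p = 0.00092), with a difference in the 144 h response of -0.996 ± 0.163 (limma adjusted p = 0.0042). As the use of strand in counting is not given in the sources used here, reads from the opposite strand cannot be told apart from those of Hotairm1. Skap2, 90.4 kb to the other side, rose at 144 h in both lines (0.77 ± 0.23 and 0.70 ± 0.23). Snx10 fell at 144 h in both (-0.60 ± 0.12 and -0.61 ± 0.12), and the homeobox gene Hoxa7 was at 0.43 ± 0.17 and -0.17 ± 0.17, neither of which passed the test. The other listed Hoxa genes averaged under 1 TPM over the 12 libraries and were not tested. Among them, Hoxa3, Hoxa4 and Hoxa5 averaged 1.43, 1.23 and 1.67 TPM in KH cells at 144 h and under 1 TPM in every other group.

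**Figure D4:**
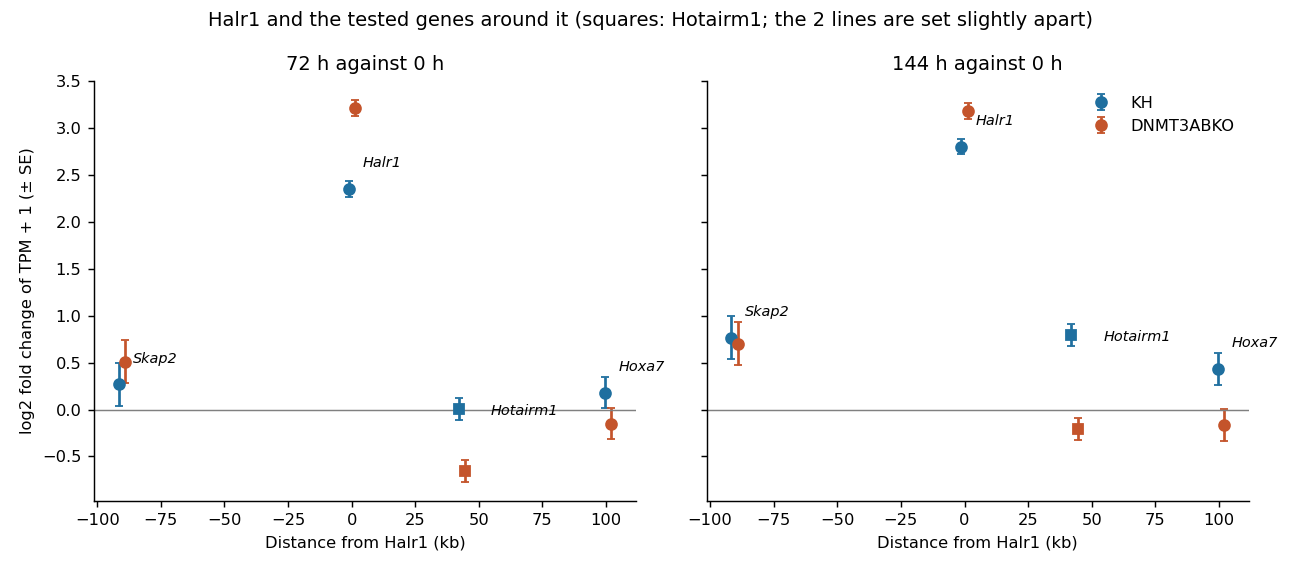
Log2 fold change of TPM + 1 from 0 h (± SE) of Halr1 and the 3 tested neighbours within 500 kb at 72 h (left) and 144 h (right), plotted by distance from Halr1 in kb; KH is blue, DNMT3ABKO orange, and squares are Hotairm1. Halr1 stands at 2.35 to 3.22 in both lines, whereas Hotairm1 at 144 h is at 0.79 in KH and -0.20 in DNMT3ABKO cells.

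Counted over the 8 tested members, 3 rose and 3 fell at 72 h in KH cells, where 47.8% of all tested genes were called, and 4 rose and 3 fell at 144 h (51.3% of all genes). In DNMT3ABKO cells 4 rose and 3 fell at 72 h (56.0%), and 5 rose and 2 fell at 144 h (57.6%). Between 72 and 144 h, 4 members passed the test in KH (22.9%) and 3 in DNMT3ABKO cells (27.3%). With so many genes called from 0 h, these counts say little about the members as a set. Between lines, 4 members were called at 0 h (9.06% of all genes), 3 at 72 h (19.3%) and 3 at 144 h (26.5%). The response differed between lines for 3 of 8 members at 72 h (5.23%) and for 5 of 8 at 144 h (8.59%). The median member difference was 0.18 at 72 h and 0.42 at 144 h, beside 0.02 and 0.01 over all genes tested. The members were chosen with earlier results of these data known, so the counts and medians between lines do not test the set either. Cyp26a1, counted at both time points, passed the filter only through the groups at 0 h.

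Other genes of the pathway were read from lists, beside the 47.8% to 57.6% of all genes that were called from 0 h. Of 6 further receptors and binding proteins 3 were tested. Fabp5, which can carry retinoic acid to another nuclear receptor, fell from 39.9 and 38.0 TPM to 11.3 and 11.6 TPM at 144 h in KH cells and from 31.8 and 31.6 to 12.2 and 13.2 TPM in DNMT3ABKO cells (-1.68 ± 0.10 and -1.26 ± 0.10). Rxrb rose by 0.39 ± 0.06 and 0.28 ± 0.06. Rxrg, a further RXR, rose by 1.21 ± 0.11 at 72 h and 0.49 ± 0.11 at 144 h in DNMT3ABKO cells. The list held 1 gene higher and 1 lower in KH cells and 2 higher and 1 lower in DNMT3ABKO cells at either time point.

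Of 18 genes for retinol storage and retinoic acid synthesis beside Aldh1a2, 8 were tested, and Aldh1a1 and Aldh1a3 were not among them. At 72 h 2 rose and 1 fell in KH cells and 3 rose and 2 fell in DNMT3ABKO cells, and at 144 h 1 rose and 4 fell in the former and 1 rose and 3 fell in the latter. The riser in both at 144 h was Dgat1, which can esterify retinol (0.35 ± 0.08 and 0.75 ± 0.08), and the strongest fall was that of Dhrs3, which turns retinaldehyde back into retinol (-1.01 ± 0.20 and -0.84 ± 0.20). The median difference between lines in the response of this list was 0.14 at 72 h and 0.11 at 144 h. Of the clearance genes beside the members, Cyp2s1 was tested and rose by 0.78 ± 0.12 at 144 h in DNMT3ABKO cells, against a value of -0.14 ± 0.12 in KH cells (difference 0.92 ± 0.18, limma adjusted p = 0.00977).

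All 18 listed coregulators of RARs were tested. In KH cells 10 rose and 1 fell at 72 h and 12 rose and 1 fell at 144 h, and in DNMT3ABKO cells 12 rose and 1 fell at 72 h and 8 rose and 2 fell at 144 h. Their medians were 0.38, 0.45, 0.47 and 0.31, beside 0.08, 0.05, 0.12 and 0.05 over all genes tested. The ES cell markers had medians of 0.45, 0.37, 0.37 and 0.59 in the same order, so a rise of this size was not particular to the coregulators. At 144 h the coactivator Ncoa1 rose by 1.08 in KH and 0.80 in DNMT3ABKO cells, Gps2, a subunit of the NCoR complex, by 0.84 and 1.07, and the corepressor Ncor1 by 0.51 and 0.71. The methyltransferase Carm1, a coactivator, fell by 0.46 and 0.57.

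Of 17 known retinoic acid response genes beside the members 12 were tested. In KH cells 6 rose and 1 fell at 72 h and 6 rose and 3 fell at 144 h. In DNMT3ABKO cells 6 rose and 2 fell at 72 h and 6 rose and 4 fell at 144 h. Shares of all genes called were 47.8% and 51.3% in the former line and 56.0% and 57.6% in the latter. The medians of the list were 0.19, 0.19, 0.30 and 0.14 in this order, beside 0.08, 0.05, 0.12 and 0.05 over all genes tested. Stra8, a premeiotic gene named for its induction by retinoic acid, went from 1.59 and 1.55 TPM at 0 h to 3.07 and 3.47 TPM at 72 h and 18.02 and 18.83 TPM at 144 h in KH cells. In the knockout line it went from 5.23 and 3.72 to 30.3 and 28.9 and then 81.7 and 86.1 TPM. The knockout line was higher throughout, by 1.08 ± 0.12, 2.84 ± 0.12 and 2.13 ± 0.12 on the log2 scale, and its response differed at 144 h by 1.05 ± 0.17 (limma adjusted p = 0.00404).

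Gbx2, a homeobox gene also active in naive ES cells, rose by 1.73 ± 0.11 and 1.76 ± 0.11 at 144 h, a difference of 0.04 ± 0.15 that did not pass the test. The homeobox gene Meis2 measured 12.3 and 11.9 TPM at 144 h in KH cells and 1.82 and 2.25 TPM in DNMT3ABKO cells, from 2.12 and 2.97 TPM and 1.79 and 2.65 TPM at 0 h. Its rise in KH cells was 1.89 ± 0.15 and the difference in response -1.97 ± 0.22 (limma adjusted p = 0.000265). Early neural markers differed between lines at the same time point. Of 5 tested, 4 were lower in DNMT3ABKO cells at 144 h and none higher (median -0.61, with 26.5% of all genes called), and the response of 2 differed. Their sum was 52.1 ± 2.05 TPM at 0 h and 91.2 ± 0.168 TPM at 144 h in KH cells, beside 55.6 ± 1.94 and 58.0 ± 1.21 TPM in the knockout line. From 0 to 144 h, 3 of the 5 rose and 2, Nes and Otx2, fell in each line, where 51.3% (KH) and 57.6% (DNMT3ABKO) of all genes were called. Sox1, an early neural transcription factor, was among those that rose. KH libraries held 0.492 and 0.521 TPM at 0 h and 13.3 and 13.4 TPM at 144 h, and DNMT3ABKO libraries 0.478 and 0.599, then 4.54 and 4.95 TPM (difference in response -1.35 ± 0.13, limma adjusted p = 0.000104). The part of such cells in the differences of Meis2 and of the members was not tested. Tgm2, a transglutaminase, fell in both lines at 144 h (-1.53 ± 0.10 and -1.65 ± 0.10). Of these listed genes, Stra8 and Meis2 had a 144 h response that differed between lines, in opposite directions.

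**Figure D5:**
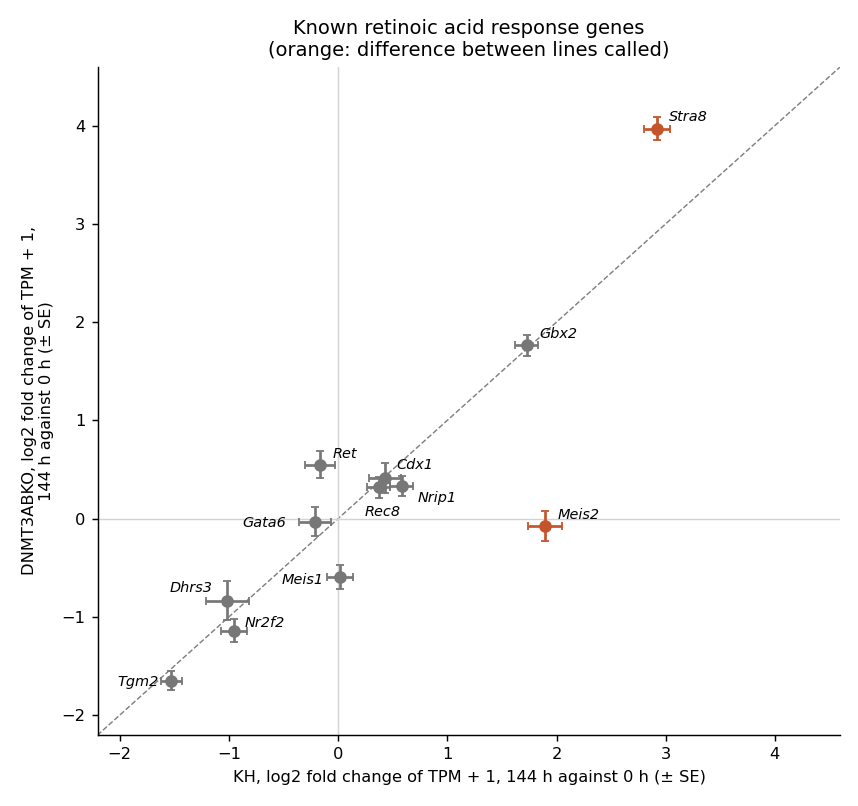
Log2 fold change of TPM + 1 at 144 h against 0 h (± SE) in KH (horizontal) and DNMT3ABKO (vertical) cells for the 12 tested response genes beside the members; the dashed line marks equal change and orange marks a called difference between lines. Stra8 lies above the line at 2.92 and 3.97, and Meis2 lies below it.

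Over the 12 libraries, which share time and line, Rarg and Halr1 correlated with r = 0.97, Rara and Halr1 with r = 0.97, and Rarg with Crabp1 with r = -0.92 on the log2 scale. Among 12123 genes, those most like Rarg were Sned1, Gpa33 and Aplp1 (r = 0.996, 0.993 and 0.991), and those most like Halr1 were Fignl2, Dyrk1b and Nectin2 (r = 0.992, 0.991 and 0.990). Rara was followed most closely by Meg3, Bmf and Mmp11 (r = 0.993, 0.991 and 0.988). The nearest to Cyp26a1 were Pth1r, Fgf8 and Mpzl3 (r = 0.982, 0.957 and 0.955), and to Crabp1 they were Cabp1, Fbn2 and Rnd2 (r = 0.987, 0.972 and 0.969). Aldh1a2 was closest to Atp6v1e1, Plk5 and Robo1 (r = 0.980, 0.977 and 0.968), Rxra to Mylpf, Cluh and Cdkl2 (r = 0.970, 0.964 and 0.956), and Crabp2, the least matched member, to Acp5, Pfkp and Serbp1 (r = 0.917, 0.898 and 0.890).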

How the data were processed

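Total RNA depleted of ribosomal RNA was sequenced by the authors, who added spike-in RNA, trimmed reads with cutadapt 2.4, aligned them to mm10 with STAR 2.7.3a and quantified GENCODE VM19 genes with StringTie 2.0 (versions per the submitters' processing notes). The deposited values are TPM per gene, 1 library per file, each summing to 1000000, with no spike-in row listed. They are shares of a library's RNA, so the RNA content per cell was not analysed here, and depth is unknown.

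Rows repeating an identifier (9 to 16 per file) were summed. Genes averaging 1 TPM or more (15727) were tested as log2(TPM + 1), which understates changes of low genes, with limma 3.58.1 (lmFit, eBayes with a trend) in R 4.3.3, with 6 group means, 11 contrasts and calls at a Benjamini-Hochberg adjusted p under 0.05 over all genes. The study's count-based test was not used, since TPM are not counts. Experiments were repeated independently per the study's reporting summary, and the labels number the replicates. With 2 libraries a group, an exact permutation test could not pass the threshold, so every p is limma's. The code was tested on simulated data. Members, lists, the rule for named genes (all members, the called extremes of each list, up to 3 each way, and the 3 genes most correlated with each tested member) and tests were chosen with earlier results of these data known. The settings varied were the pseudocount (0.1 TPM), no filter, median-ratio scaling, only the groups in the contrast, a replicate block, array weights and leaving out each library. Some genes of the lists are not reported here and are not counted. The promoter search was chosen after seeing the data. Python 3.11.15, pandas 2.3.3 and matplotlib 3.10.9 were used.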

Additional observations from a re-analysis of the deposited data

Results flagged for a closer look

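The responses of 6 members differed between lines by the interaction term of limma, so that each is listed here. The DNMT3ABKO response minus the KH response, on the log2 scale of TPM + 1, was 0.69 at 72 h and 0.45 at 144 h for Rarg, 0.86 at 72 h for Halr1, 1.11 at 72 h and 1.40 at 144 h for Cyp26a1, and 0.79, 1.02 and -0.63 at 144 h for Rxra, Aldh1a2 and Crabp1.

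For Cyp26a1 the groups differ at 0 h (3.440 and 4.404 TPM in KH against 1.08 and 1.47 TPM in DNMT3ABKO cells) and not detectably at 72 h. For Aldh1a2 and Rxra they differ at 144 h (6.08 and 6.11 against 2.23 and 2.23 TPM, and 12.08 and 11.98 against 6.11 and 5.77 TPM). In Halr1 the line difference reverses between 0 h (-0.38) and 72 h (0.49) and is 0.00 at 144 h.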

How the results depend on the processing

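Of 52 calls of a tested member in a contrast, 35 held in all 18 alternatives, 17 were lost in at least one and none changed direction. Under median-ratio scaling the all-gene median shifted most for DNMT3ABKO at 72 h, by -0.11, and 1 call was lost. Array weights gave 5 members called for DNMT3ABKO 144 h against 72 h instead of 3, 1 instead of 4 between lines at 0 h, 6 instead of 3 at 72 h and 3 instead of 5 for the difference in the 144 h response. With only the groups in the contrast, 1 was called between lines at 0 h and 3 for the 144 h difference, with fewer libraries behind each spread. Leaving out single libraries gave 2 to 5 for DNMT3ABKO 144 h against 72 h, 1 to 4 between lines at 0 h (1 without replicate 2 of KH at 0 h), 1 to 3 at 72 h (1 without replicate 2 of KH at 72 h) and 3 to 6 for the 144 h difference (3 without KH 0 h replicate 2, or replicate 1 of either line at 144 h). Where a group was left with 1 library, it was assumed to vary like the others. Otherwise the cause was not tested.

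The reporting summary says that the time points of a biological replicate were handled in parallel, but same-numbered replicates did not deviate together (r of -0.10 to 0.10 within lines), and no source ties the labels' numbers to such runs, so whether they pair libraries is unsettled. A replicate block within each line lost 4 of the 52 calls (Rarg and Crabp1 between lines at 0 h, Rxra between lines at 72 h, Crabp2 in KH at 72 h), with 2 members called between lines at 0 h. A pseudocount of 0.1 TPM moved the Cyp26a1 changes in DNMT3ABKO cells to -1.39 and -0.76 and its differences in response to 1.56 (not called) and 2.26. Rarb, Cyp26b1 and Cyp26a1 lay under 1 TPM in every treated library, and as depth is unknown their counting error could not be given.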
